A study of Mus musculus with 4 samples.

Results

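The mRNAs of 10 heat shock chaperone genes (Hspa1a, Hspa1b, Hspa8, Hsph1, Hspb1, Dnajb1, Dnaja1, Hsp90aa1, Hspe1 and Hspd1) were followed across the cell classes of mouse liver tumours. The genes were chosen by name from the 17813 genes of the single-cell table, and all 10 were present. Most of the encoded proteins work in the cytosol and nucleus. Hspd1 and Hspe1 encode the chaperonins HSP60 and HSP10, which work mainly in mitochondria, so the name cytosolic does not hold for these last members.

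Heat shock proteins hold or refold unfolded polypeptides. HSP70 proteins bind exposed hydrophobic stretches with help from J-domain proteins such as DNAJB1 and DNAJA1, nucleotide exchange factors such as HSPH1 release the client again, and HSP90 acts later on kinases and receptors. Under proteotoxic stress the factor HSF1 binds heat shock elements, arrays of nGAAn units, and raises their transcription. Hspa8 is the constitutive HSP70 gene, whereas Hspa1a and Hspa1b are the classical inducible ones. In single-cell work the inducible genes are also known to respond to enzymatic tissue dissociation.

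The study sampled liver tumour (HCC) tissue of C57BL/6 mice aged 5 months. All mice had received diethylnitrosamine (DEN, a hepatocarcinogen, 25 mg/kg i.p.) at week 2 after birth, followed each week by the hepatotoxin carbon tetrachloride (CCl4, 0.5 ml/kg i.p. in corn oil), which keeps the liver regenerating. There were 2 samples of the floxed control genotype Miz1F/F and 2 of Miz1_delta_hep, in which, by its name, the transcription factor gene Miz1 is deleted in hepatocytes; the Cre driver is not given in the sources used here. Livers were digested to single cells, captured on a 10x Genomics Chromium controller and read as 3′ tags with molecular identifiers (UMIs), each of which stands for about 1 captured mRNA molecule.

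The deposited table pooled 24802 cells and 65920312 UMIs under 4 barcode suffixes, called sets 1 to 4 here. No source used here ties a suffix to a sample, so Miz1F/F and Miz1_delta_hep could not be compared, and sets are neither genotypes nor replicates; no p-value is given. The sets held 2574, 6224, 4825 and 11179 cells, and the median cell had 2648, 906, 1037 and 1859 UMIs. In all, 373 cell barcodes occurred in more than 1 set. Sets 2 and 3 shared 115 of them, and 76 of these carried the same cell class in both sets, against 14 from the class shares alone. Leaving out the 748 cells with such barcodes (3.02%) moved none of the member medians or levels given below by more than 1 SD between sets. All 10 genes then kept their highest class among the classes with values in at least 3 sets. Leaving these cells out removed the 2-fold call of Hspa8 in the first comparison of classes and added one of Hspb1 in the next.

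Cells fell into 27 clusters, made without the 10 genes, other chaperones or immediate early genes. Of these, 25 clusters were named as 16 classes from marker genes (Clec4f, Vsig4 and Timd4 for Kupffer-like cells, Alb and Apoa1 for hepatocyte-like cells, for example), and 1032 cells stayed unnamed. The class of Krt8/Sox9 epithelial cells expressed hepatocyte (Hnf4a, 136 CPM) and duct-associated (Sox9, 459 CPM) genes. It was named only by these and by Krt8 (2506 CPM), Krt18 (2014 CPM) and Cdh1 (199 CPM). A gene's level in one class is the average, over that class's cells, of its share of all UMIs in the cell, in counts per 1000000 UMIs (CPM). Levels are given as the median over sets with at least 20 cells of the class, with the lowest and highest set.

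Hspa1a and Hspa1b lie 9951 bases apart on chromosome 17 (GRCm38, Hspa1a at chr17:34969190-34972156 and Hspa1b at chr17:34956436-34959238, both on the minus strand). Their coding sequences were 99.4% identical, but their 3′ untranslated regions, where 3′ tags fall, were 47.1% identical and no 50-base window of the Hspa1a one occurred in the Hspa1b transcript. Reads from the coding part cannot be told apart between them, so the split between the pair is uncertain to that extent. The promoters (RefSeq, GRCm38.p6, 250 bases before to 50 after the start site) are shown because these genes moved together in the data. Capitals mark GAANNTTC, a pair of facing heat shock units, which lies 104 bases before the start in both genes; the promoters differed at 4 of 300 positions.

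Hspa1a, chr17:34972107-34972406, minus strand: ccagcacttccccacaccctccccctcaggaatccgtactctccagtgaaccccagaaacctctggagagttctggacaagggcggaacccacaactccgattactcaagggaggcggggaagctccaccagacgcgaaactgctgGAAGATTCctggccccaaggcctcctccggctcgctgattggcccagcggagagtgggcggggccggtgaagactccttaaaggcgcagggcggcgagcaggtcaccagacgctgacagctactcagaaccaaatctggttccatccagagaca
Hspa1b, chr17:34959189-34959488, minus strand: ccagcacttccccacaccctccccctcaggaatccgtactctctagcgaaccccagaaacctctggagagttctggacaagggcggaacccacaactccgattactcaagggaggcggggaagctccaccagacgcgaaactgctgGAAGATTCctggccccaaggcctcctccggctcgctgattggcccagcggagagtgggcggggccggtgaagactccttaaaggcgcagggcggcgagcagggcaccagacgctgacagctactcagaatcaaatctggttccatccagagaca

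Hspe1 (chr1:55088132-55091307, plus strand) and Hspd1 (chr1:55077835-55088243, minus strand) are transcribed away from each other, and the annotated genes overlap by 112 bases. A promoter window of Hspe1 and one of Hspd1 shared 285 bases on opposite strands. The Hspe1 window is shown because it carries 3 overlapping matches to TTCNNGAA or GAANNTTC in 1 run, in capitals. The promoter of Hspb1 is shown with its 2 matches because its mRNA had a pattern across classes unlike the others.

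Hspe1, chr1:55087898-55088197, plus strand: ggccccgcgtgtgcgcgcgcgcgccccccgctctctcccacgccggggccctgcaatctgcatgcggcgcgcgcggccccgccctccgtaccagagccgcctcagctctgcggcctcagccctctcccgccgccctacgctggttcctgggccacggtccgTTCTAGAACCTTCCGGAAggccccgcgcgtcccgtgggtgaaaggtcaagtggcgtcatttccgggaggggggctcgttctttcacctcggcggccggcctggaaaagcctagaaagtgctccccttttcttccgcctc
Hspb1, chr5:135887669-135887968, plus strand: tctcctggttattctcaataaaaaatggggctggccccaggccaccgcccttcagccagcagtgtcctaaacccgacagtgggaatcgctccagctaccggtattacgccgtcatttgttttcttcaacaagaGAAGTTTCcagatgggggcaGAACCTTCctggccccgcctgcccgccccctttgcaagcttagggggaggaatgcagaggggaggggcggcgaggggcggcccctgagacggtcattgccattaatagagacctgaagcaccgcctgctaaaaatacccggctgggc

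Of the 10 genes, 8 had a promoter in the RefSeq table, which lacks Hspa8 and Hsp90aa1. Both strands were searched for GAANNTTC and TTCNNGAA, which read the same on either strand. At least 1 match was present in some promoter of 7 of the 8 genes, the exception being Dnajb1, against 17.0% of all genes in the table, and in 8 of their 13 promoters against 15.1% of all 32851 promoters of that length. The 3-unit arrays GAANNTTCNNGAA and TTCNNGAANNTTC, which hold the shorter motifs, occurred for 3 of the 8 genes (Hsph1, Hspe1 and Hspd1) against 0.662% of all genes, and in 4 of the 13 promoters against 0.603% of all. The Hspd1 and Hspe1 matches are the same bases, counted once for each gene, and Dnaja1 matched in 1 of 3 promoters. A match describes letters, not binding.

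Among the HSP70 genes, Hspa1a was highest in Kupffer-like cells, the resident liver macrophages, in each of the 4 sets. Its level there was 417, 1021, 788 and 818 CPM in sets 1 to 4. Monocyte/macrophage-like cells followed with 115, 736, 734 and 449 CPM and endothelial-like cells with 289, 452, 200 and 548 CPM. Dendritic-like cells had 27.8, 314, 365 and 310 CPM. The ranges of these 4 classes overlapped except for Kupffer against dendritic. The summed level of 19 immediate early genes, which also respond to tissue digestion, was 18931 CPM (11809 to 25272) in Kupffer-like cells, 11399 CPM in monocyte/macrophages, 5385 CPM in endothelial cells and 2327 CPM in hepatocyte-like cells, and its part in the Hspa1a levels was not tested.

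Hepatocyte-like cells had 71.7, 35.2, 3.77 and 59.4 CPM of Hspa1a, below every set of the Kupffer and endothelial classes. Lymphoid classes were low as well, at medians of 79.0 CPM in T, 66.2 CPM in B and 62.2 CPM in NK/ILC1-like cells. Plasma cells (29.5 CPM), erythroid cells (25.8 CPM), plasmacytoid dendritic cells (21.6 CPM) and basophil/mast cells (19 CPM, 4 UMIs in all) closed the order, and these last values do not separate from each other beyond their spread. Cholangiocyte-like cells had 425 and 127 CPM in the 2 sets that held enough of them, and stellate/fibroblast-like cells 208 CPM in set 3.

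Hspa1b followed Hspa1a. Kupffer-like cells had 87.5, 597, 205 and 370 CPM, monocyte/macrophages 20.3, 324, 265 and 98.9 CPM, and endothelial cells 102.4, 322, 165 and 142 CPM. Hepatocyte-like cells had 11.9, 26.4, 4.6 and 18.7 CPM, below the endothelial class in every set. Over the 57 class and set values, the log2 levels of Hspa1a and Hspa1b correlated with a Pearson r of 0.85, and no gene among 5572 was more like Hspa1a; these values share libraries and depth.

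**Figure D1:**
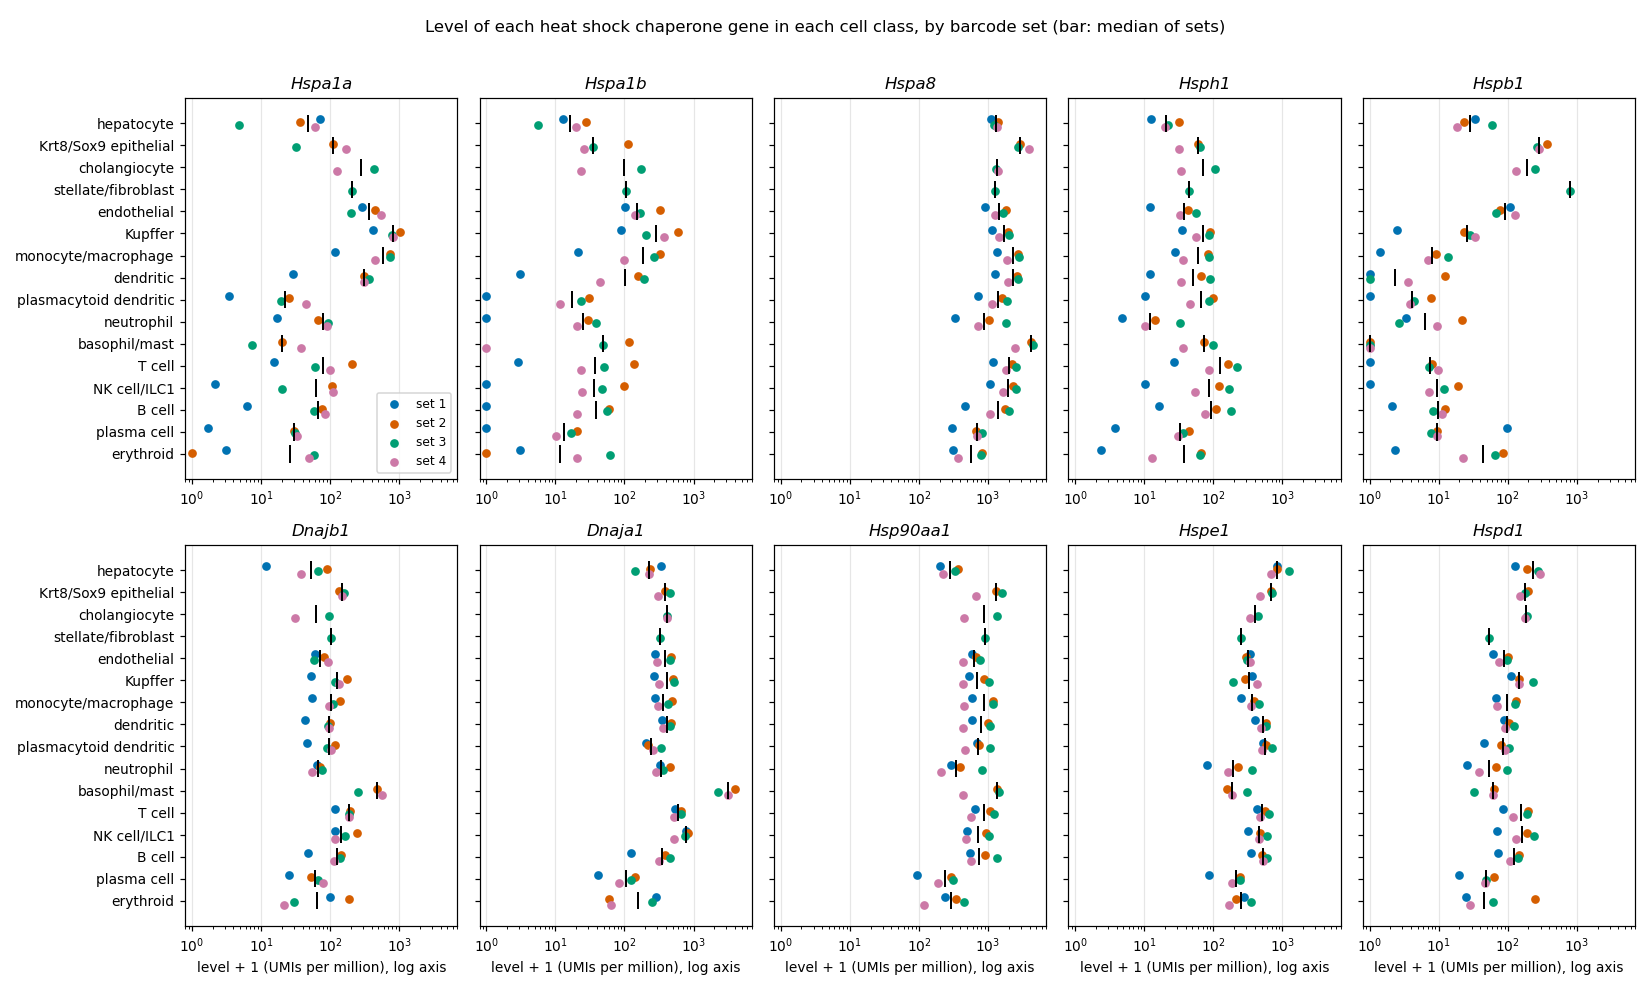
Level of each of the 10 genes (CPM plus 1, log axis) in 16 cell classes; points are barcode sets with at least 20 cells of the class and bars the median of sets. Hspa1a and Hspa1b peak in macrophages and endothelial cells, Hspb1 in stromal and epithelial cells, Dnaja1 in basophil/mast cells and Hspe1 in hepatocytes, and Hspa8 is found in every class.

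The constitutive gene Hspa8 had another order. It was highest in basophil/mast-like cells (4253, 4436 and 2456 CPM in sets 2 to 4) and Krt8/Sox9 epithelial cells (2953, 2704 and 3895 CPM), which overlapped. Monocyte/macrophages (2306 CPM), dendritic cells (2288 CPM), T cells (2043 CPM) and NK/ILC1 cells (1969 CPM) came next, and plasma cells (685 CPM) and erythroid cells (572 CPM) were last. Hepatocyte-like cells had 1109, 1410, 1241 and 1373 CPM, a narrower range over sets than any leukocyte class with all 4 sets.

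As a share of HSP70 molecules (Hspa1a and Hspa1b among Hspa1a, Hspa1b and Hspa8 UMIs), the inducible pair made up 30.1%, 44.3%, 29.7% and 46.5% in Kupffer-like cells of sets 1 to 4. In endothelial cells the share was 30.7%, 31.2%, 17.7% and 34.2%, and in monocyte/macrophages 6.57%, 26.7%, 23.1% and 22.6%. Hepatocyte-like cells stayed between 1.61% and 3.97% and plasmacytoid dendritic cells between 0.385% and 3.92%. The Kupffer and hepatocyte ranges lay far apart. The comparison between genes uses molecules counted at the 3′ end, which do not scale with transcript length.

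**Figure D2:**
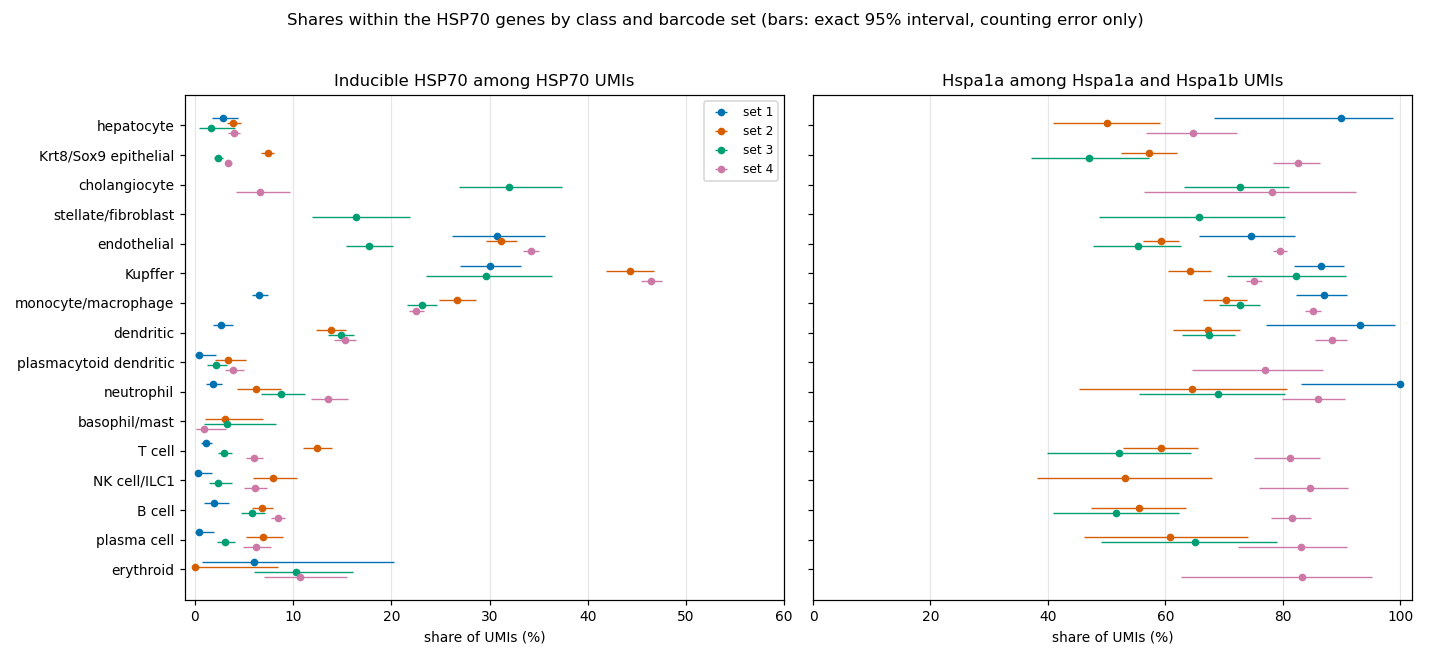
Left, Hspa1a and Hspa1b as a percent of Hspa1a, Hspa1b and Hspa8 UMIs; right, Hspa1a as a percent of Hspa1a and Hspa1b UMIs; points are barcode sets, bars exact 95% intervals for counting error, for class and set values with at least 20 UMIs. The left panel separates Kupffer and endothelial cells from hepatocytes and lymphocytes, and in the right panel set 2 lies below set 4 in every named class with both values.

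The division between the near-identical copies differed between the sets. Over all cells Hspa1a made up 85.5% of the pair in set 1 (exact 95% interval 82.8 to 88.0), 62.1% in set 2 (60.6 to 63.6), 65.6% in set 3 (63.5 to 67.7) and 78.8% in set 4 (78.1 to 79.4). In each of the 11 named classes with at least 20 UMIs of the pair in sets 2 and 4 the share was lower in set 2, as in Kupffer cells (64.2% and 75.1%), endothelial cells (59.2% and 79.6%), monocyte/macrophages (70.3% and 85.2%) and B cells (55.5% and 81.6%). Intervals for UMIs cover counting error only. What differed between the sets is not given in the sources used here and was not tested.

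With every cell thinned to 1000 UMIs and shallower cells left out, 46.0% of 1229 Kupffer-like cells, pooled over sets, had a Hspa1a UMI (exact 95% interval 43.2 to 48.8). The share was 28.6% of 1985 endothelial cells, 23.0% of 2117 monocyte/macrophages and 3.46% of 752 hepatocyte-like cells. By set the share ran from 28.9% to 54.3% in Kupffer cells, 14.9% to 31.7% in endothelial cells, 6.22% to 31.3% in monocyte/macrophages and 2.47% to 5.74% in hepatocytes. The median over sets was higher in monocyte/macrophages (27.1%) than in endothelial cells (23.7%), the reverse of the pooled order, so these classes are not ranked. The lowest pooled share was 1.69% of 887 plasmacytoid dendritic cells, at the same depth. It stands here as a rough mark for free RNA in the droplets, which was not measured. The hepatocyte interval (2.27 to 5.03) overlaps that of the plasmacytoid class (0.950 to 2.77), and such overlap does not decide whether the shares differ. By set the plasmacytoid share ran from 0% to 2.75%. Whether the hepatocyte share lay above free RNA was not tested. Without thinning the Kupffer share was 50.9%.

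Hspa1a was also the most uneven gene from cell to cell at the median, though the largest single value was that of Hsp90aa1 (3.77, neutrophils of set 1). Its variance over its mean across thinned cells of one class and set had a median of 2.22 (1.51 to 3.68, 13 class and set values), where equal cells would give about 1 by counting alone. Hspb1 (1.76, 4 values) and Hspa1b (1.60, 9 values) followed, whereas Hspd1 (1.04, 8 values) and Hspe1 (1.09, 31 values) stayed near the counting level. The genes were scored in different classes and sets. Few UMIs per cell also draw the ratio towards 1, and Hspd1 had means of 0.068 to 0.29. In B cells of set 4, at means of 0.088 and 0.113, the ratio was 2.02 for Hspa1a and 1.05 for Hspd1. The correlation of Hspa1a with Hspa1b over the cells of a class and set was 0.35 at the median (0.20 to 0.53, 9 values). It was 0.22 with Hsp90aa1 (0.04 to 0.30, 13 values) and weak with Hspa8 (0.11, 0.00 to 0.21, 13 values).

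Hsph1 (HSP110), the nucleotide exchange factor, had a low level in every class. It was highest at the median in T-like cells with 26.4, 163, 222 and 86.3 CPM, but in set 1 Kupffer cells (33.7 CPM) and monocyte/macrophages (27.3 CPM) were above them. B cells had 92.2 CPM and NK/ILC1 cells 86.1 CPM at the median, which overlap the T cell range, and neutrophil-like cells had the least (11.2 CPM, 3.81 to 32.5).

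Of the J-domain proteins, Dnaja1 stood out in basophil/mast-like cells with 4005, 2252 and 3175 CPM in sets 2 to 4. NK/ILC1-like cells had 766, 836, 763 and 524 CPM and T cells 597 CPM at the median, and every basophil/mast value exceeded every value of all other classes. A Dnaja1 UMI was found in 82.8% of 58 basophil/mast cells thinned to 1000 UMIs (exact 95% interval 70.6 to 91.4), against 41.4% of 599 NK/ILC1 cells. Dnajb1 was likewise highest there (483, 250 and 561 CPM), followed by T cells (185 CPM). The class held 56, 33 and 45 cells in these sets and carried its defining markers Mcpt8 (661 CPM) and Cpa3 (459 CPM). Its sum of 19 immediate early genes (21251 CPM, 17198 to 29532) overlapped those of Krt8/Sox9 epithelial (20110 CPM, 16809 to 21332) and Kupffer cells (18931 CPM, 11809 to 25272). The part of these genes in the Dnaja1 and Dnajb1 levels was not tested.

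Hsp90aa1, the inducible cytosolic HSP90, was highest at the median in basophil/mast (1368, 1447 and 441 CPM in sets 2 to 4) and Krt8/Sox9 epithelial cells (1288, 1605 and 666 CPM). Basophil/mast cells led in set 2 and Krt8/Sox9 cells in sets 3 and 4. In set 4 B cells (572 CPM) were above basophil/mast cells. Thinned to 1000 UMIs and pooled over sets, 37.9% of 58 basophil/mast cells had a Hsp90aa1 UMI, against 65.5% of 721 Krt8/Sox9 cells and 48.0% of 1401 T cells. The classes drew on the sets unequally. Only set 4 held at least 20 such basophil/mast cells, with 32.5%, against 47.0% of Krt8/Sox9 and 40.1% of T cells there. Thinned to 500 UMIs, the pooled shares were 33.6% of 131 basophil/mast, 42.6% of 760 Krt8/Sox9 and 33.5% of 2301 T cells. Most leukocyte classes lay between 704 and 880 CPM at the median and did not separate beyond their spread over sets. Hepatocyte-like cells had 199, 371, 335 and 219 CPM and plasma cells 94.4, 289, 306 and 187 CPM. Hsp90aa1 made up 29.6% of Hsp90aa1 and Hsp90ab1 UMIs in hepatocytes, 27.6% in Kupffer cells and 40.8% in Krt8/Sox9 epithelial cells at the median of sets.

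The small heat shock protein gene Hspb1 (HSP25 in the mouse), whose product binds actin and unfolded proteins, was found mainly outside the leukocyte classes. Stellate/fibroblast-like cells had 804 CPM in set 3, the one set with enough of them, and Krt8/Sox9 epithelial cells had 365, 263 and 279 CPM in sets 2 to 4. Cholangiocyte-like cells had 249 and 131 CPM, endothelial cells 106, 75.5, 65.6 and 127 CPM, and hepatocyte-like cells 32.5, 22.5, 58.4 and 17.5 CPM. Kupffer cells had 25.1 CPM and the other leukocyte classes under 9 CPM at the median, and no Hspb1 UMI was seen in the basophil/mast cells of sets 2 to 4 (1 of all 139 cells of the class had one). Erythroid cells had 43.0 CPM at the median from 10 UMIs in all. After thinning, 49.0% of 51 stellate/fibroblast cells, 22.3% of 721 Krt8/Sox9 cells and 9.52% of 1985 endothelial cells had a Hspb1 UMI, against 0.356% of 1125 dendritic cells.

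A single value departed from this. Plasma cells of set 1 showed 98.1 CPM of Hspb1 against 6.84 to 8.56 CPM in the other sets. Of its 95 UMIs, 90 came from 1 cell of 21667 UMIs, and the level without that cell was 5.97 CPM.

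The chaperonin genes followed the hepatocyte. Hspe1 was highest in hepatocyte-like cells in all 4 sets, with 826, 822, 1247 and 689 CPM. Krt8/Sox9 epithelial cells (688, 717 and 468 CPM) and plasmacytoid dendritic cells (551 CPM at the median) were next, and neutrophils (192 CPM) and basophil/mast cells (183 CPM) were last. Hspd1 in hepatocyte-like cells was 127, 188, 274 and 291 CPM, the highest in sets 1, 3 and 4. In set 2 the 33 erythroid-like cells (247 CPM from 9 UMIs), T cells (194 CPM) and Krt8/Sox9 epithelial cells (193 CPM) were above hepatocytes, the latter classes by little. Hspd1 made up 23.7% of Hspd1 and Hspe1 UMIs in hepatocytes and 11.8% in plasmacytoid dendritic cells at the median of sets. Over the 57 values, both genes correlated with r = 0.68.

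Across the 10 genes the closest pairs over these values, after Hspa1a with Hspa1b, were Hspa8 with Hsp90aa1 (r = 0.78), Hsph1 with Hsp90aa1 (0.74) and Hspa8 with Dnaja1 (0.71). Hspb1 was the outlying member, at -0.22 with Dnaja1 and -0.13 with Dnajb1. The genes most like Hspa1a after Hspa1b were Hpgd (0.80), Vcam1 (0.80), Anxa3 (0.79), Cxcl16 (0.79), Trafd1 (0.78), Capza2 (0.78), Rnpep (0.77), Tmem65 (0.77) and Lgmn (0.77). Those most like Hspd1 were Atp5g3 (0.74), Bpnt1 (0.72), Psmd11 (0.72), Atp5a1 (0.72), Slc25a3 (0.70), Hdgf (0.70), Rangap1 (0.70), St13 (0.69), Prps1 (0.69) and Dyrk2 (0.69). Atp5g3 and Atp5a1 encode subunits of the mitochondrial ATP synthase and Slc25a3 the mitochondrial phosphate carrier.

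Sets differed in several members at once. In the 12 classes present in all sets, Hspa8, Hsph1 and Hspd1 were lowest in set 1 in all 12, and Hspa1b in 10 and Hspa1a in 9. Hsp90aa1 was highest in set 3 in 11 of the 12 and lowest in set 4 in 9, and Hspa1b was highest in set 2 in 9. In Kupffer cells, for example, Hsp90aa1 was 525, 883, 1038 and 436 CPM in sets 1 to 4. Several classes were made of different clusters in different sets, B cells mostly of cluster 2 in sets 1 and 3, cluster 22 in set 2 and cluster 21 in set 4, so set and cell state cannot be told apart there. Genotype, handling and depth of the sets could not be told apart either.

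Class pairs were then compared within each set as the log2 ratio of levels plus 10 CPM, for genes with at least 20 CPM on average, and a gene was called when it differed at least 2-fold in the same direction in every set. The first pair set Krt8/Sox9 epithelial cells against hepatocyte-like cells (sets 2 to 4). Hspb1, Hsp90aa1, Hspa1a and Hspa8 were higher, 4 of 10 members against 8.15% of 5267 genes, and no member was lower against 4.33%. Their log2 ratios were 3.39 for Hspb1 (2.00 to 3.53), 1.77 for Hsp90aa1 (1.56 to 2.23), 1.42 for Hspa1a (1.35 to 1.58) and 1.12 for Hspa8 (1.06 to 1.498). Hspa1a stood at 111, 31.2 and 167 CPM in Krt8/Sox9 cells of sets 2 to 4. Its ratio of 1.58 in set 3 set 31.2 against 3.77 CPM in 51 hepatocyte-like cells, so the added 10 CPM weighs heavily there. The lowest set share of thinned Krt8/Sox9 cells with a Hspa1a UMI was 1.95%, within the plasmacytoid range. Hspe1 was lower in every set by less than 2-fold (-0.55, -0.79 to -0.25). The member median was 0.94 against 0.31 for all genes; with all genes centred at 0, Hspa8 fell to 0.71 and lost its call. The calls of Hspb1 and Hsp90aa1 held in every alternative tried, while Hspa1a and Hspa8 were both lost with summed UMIs and at Leiden resolution 0.5. Hspa1a was also lost at a pseudocount of 50 CPM and a filter of 100 CPM, and Hspa8 with cells of at least 500 genes.

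Beside these values, the sum of immediate early genes was 20110 CPM (16809 to 21332) in the Krt8/Sox9 cells and 2327 CPM (2183 to 2585) in hepatocytes, and 16 of 19 of these genes were at least 2-fold higher. Their part in the chaperone differences was not tested. The sum of 15 abundant hepatocyte products was 43650 CPM in the Krt8/Sox9 class and 176940 CPM in hepatocytes. Of the other chaperone lists, 1 of 8 HSP70 and exchange factor genes, 0 of 12 J-domain genes, 1 of 13 HSP90 and cochaperone genes and 0 of 13 TRiC and prefoldin genes were higher by the same rule. The small heat shock protein gene Hspb8 stood at 267 CPM in Krt8/Sox9 cells and 57.2 CPM in hepatocytes.

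In endothelial-like against hepatocyte-like cells (4 sets), Hspa1a (3.18, 1.87 to 3.93) and Hspa1b (2.79, 2.36 to 3.58) were higher, 2 of 10 members against 24.1% of 5986 genes, and Hspe1 was lower (-1.35, -2.01 to -1.002), 1 of 10 against 9.12%. These shares were near the background. The member median was 0.72 and that of all genes 0.74. With all genes centred, Hspa1a remained at 2.53 and Hspe1 at -2.13, and Hspd1 (-2.07) was also called lower. The Hspe1 call was lost at a pseudocount of 50 CPM, with summed UMIs, with cells of at least 500 genes, at Leiden resolution 0.5 and with clustering on all genes. With summed UMIs and with cells of at least 500 genes Hspd1 was called lower in its place, and in the latter Hspb1 was also called higher. Hspa1b left the test at a filter of 100 CPM, and the Hspa1a call held in every alternative tried. Immediate early genes summed to 5385 CPM (4707 to 6861) in the endothelial class. Endothelial cells came mostly from cluster 20 in sets 2 and 3 and cluster 19 in sets 1 and 4.

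**Figure D3:**
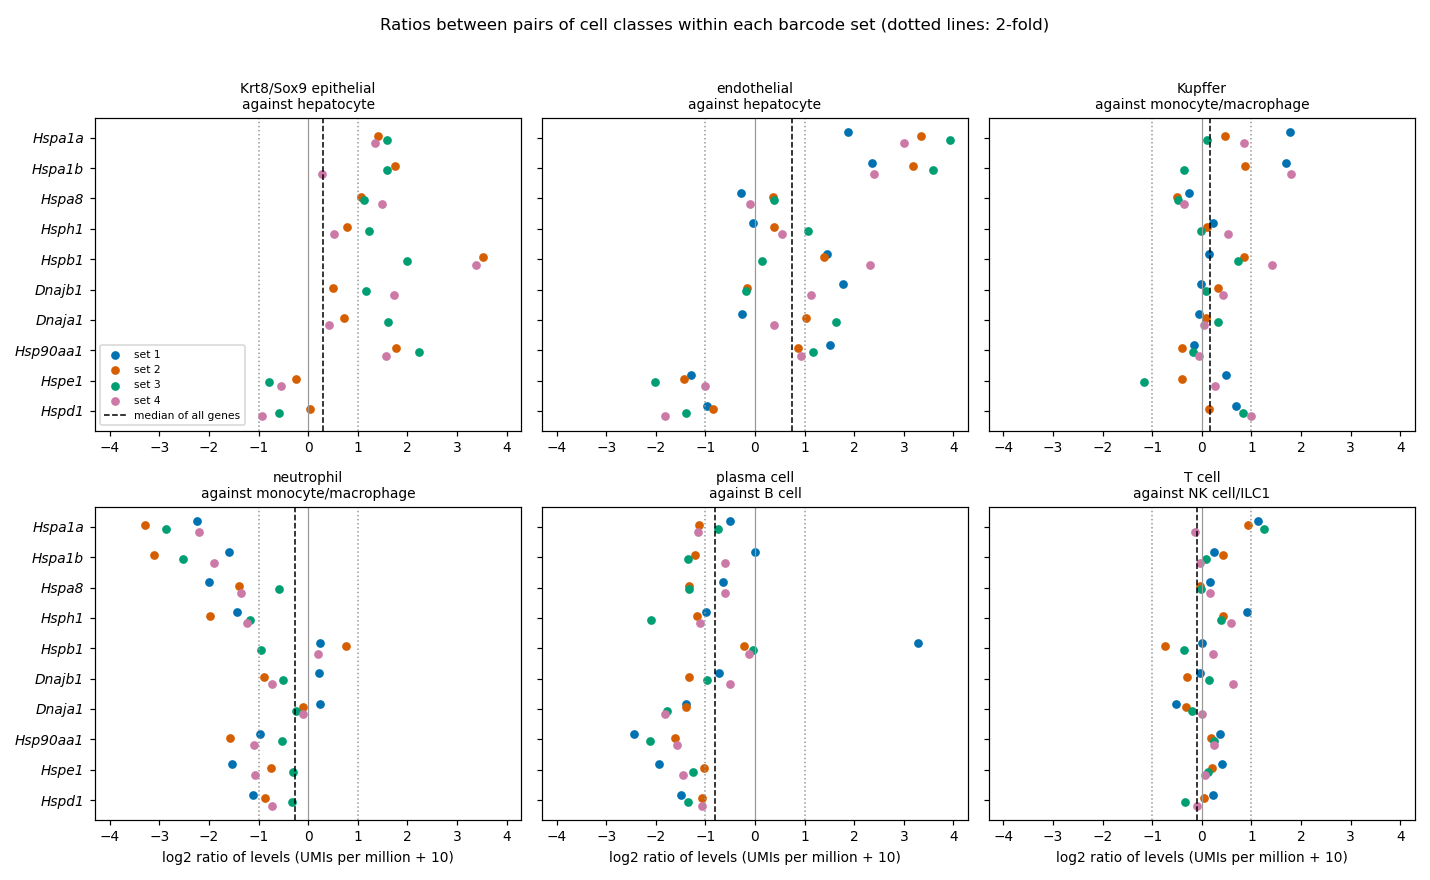
Log2 ratio of levels (CPM plus 10) of the 10 genes in 6 pairs of cell classes; points are barcode sets, the dashed line is the median of all genes with at least 20 CPM and dotted lines mark 2-fold. Hspa1a and Hspa1b lie to the right of 2-fold in endothelial cells and to the left in neutrophils in every set, and the set 1 point of Hspb1 in plasma cells rests on 1 cell.

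Between Kupffer-like and monocyte/macrophage-like cells none of the 9 members tested was called higher or lower, where 3.53% and 2.48% of 5323 genes were, so the count says nothing particular about the members. Hspa1b had the largest ratio (1.27) but went both ways, at 1.69, 0.86, -0.36 and 1.803 in sets 1 to 4. Hspa1a was higher in every set by 0.66 at the median (0.10 to 1.77) and Hspa8 lower in every set. The member median was 0.16 against 0.17 for all genes.

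Neutrophil-like cells had less Hspa1a (-2.55, -3.30 to -2.20), Hspa1b (-2.21, -3.10 to -1.60) and Hsph1 (-1.33, -1.99 to -1.17) than monocyte/macrophages, 3 of 9 members with enough signal against 5.62% of 4736 genes, and none was higher against 4.52%. Hspa8 stood at 883 against 2306 CPM. The member median was -1.24 against -0.27 for all genes, but -0.36 when UMIs were summed over the class, which gives deep cells more weight. The Hspa1a call held in every alternative tried. Hsph1 was lost at a pseudocount of 50 CPM, a filter of 100 CPM, with summed UMIs, with cells of at least 500 genes, with clustering on all genes and after centring, and Hspa1b in the first pair of these. At Leiden resolutions 0.5 and 2.0 Hspa8, Hsp90aa1 and Hspe1 were called lower too. Immediate early genes were at 14987 CPM (11362 to 18358) in neutrophils and 11399 CPM (9506 to 14204) in monocyte/macrophages, ranges that overlap. Their part in the chaperone differences was not tested.

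Plasma cells against B cells showed Hsp90aa1 (-1.86, -2.44 to -1.56), Dnaja1 (-1.58, -1.80 to -1.39), Hspe1 (-1.35, -1.94 to -1.03) and Hspd1 (-1.21, -1.49 to -1.07) as lower, 4 of 9 members against 19.9% of 3970 genes, with none higher against 2.90%. All genes had a median of -0.81 in this pair, and with that set to 0 no member was called and Hsp90aa1 stood at -1.12. Apart from centring, the Hsp90aa1 call held in every alternative tried, while Dnaja1, Hspe1 and Hspd1 were each lost in several, among them a pseudocount of 50 CPM. Endoplasmic reticulum chaperones went the other way, with 3 of 11 at least 2-fold higher and a median of 1.07 (all genes -0.81). Hsp90b1 (GRP94) reached 3184 CPM in plasma cells, Hspa5 (BiP) 1223 CPM and Calr 628 CPM.

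T-like against NK/ILC1-like cells gave no call in either direction, where 0.949% of 4955 genes were higher and 1.65% lower. The member median was 0.15 against -0.10.

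Members also varied between clusters of 1 class. In the monocyte/macrophage class, cluster 7 (Gpnmb, Trem2, C1qb) had 242, 976, 1157 and 954 CPM of Hspa1a in sets 1 to 4 and cluster 6 (Chil3, Ccr2, Lyz2) 62.7, 511, 469 and 297 CPM. The log2 ratio was 1.47 (0.92 to 1.79), and Dnajb1 (1.03, 0.17 to 1.42) and Hspa1b (0.77, 0.64 to 1.39) were also higher in every set, whereas Hspa8 was slightly lower (-0.12). Cluster 7 had more Hspa1a than the Kupffer class of the same set in sets 3 and 4.

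Among Kupffer-like cells, cluster 11 (Fcna, Hmox1, Cd5l) exceeded cluster 12 (C1qb, Folr2, Fabp7) for Hspa1a by 1.68 (1.60 to 2.11) and for Hspa1b by 1.93 (1.26 to 2.30) in the 3 sets with enough cells of both. Cluster 11 had more UMIs per cell, with medians of 3214, 889 and 1995 against 763, 560 and 1036 in sets 1, 2 and 4. The part of depth in this was not tested.

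In neutrophils, cluster 1 (Camp, Ngp, Elane, genes of granulocyte precursors) exceeded cluster 0 (G0s2, Il1r2, Csf3r) in every set for Hspd1 (1.79, 1.10 to 3.67), Hspe1 (1.59, 1.04 to 1.98) and Hspa8 (1.39, 0.76 to 1.72). Its cells were also deeper, 8018, 4344, 3604 and 6324 UMIs at the median against 1461, 523, 506 and 865. In hepatocyte-like cells, cluster 9 (Fabp1, Gsta1, Arg1) had 1211, 1176 and 914 CPM of Hspe1 in sets 1, 2 and 4 and cluster 8 (Alb, Ahsg, Serpina3k) 536, 639 and 466 CPM, a ratio of 0.96 (0.87 to 1.16). Cluster 9 cells were not uniformly deeper (1170, 923 and 1278 against 929, 5964 and 2758 UMIs).

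**Figure D4:**
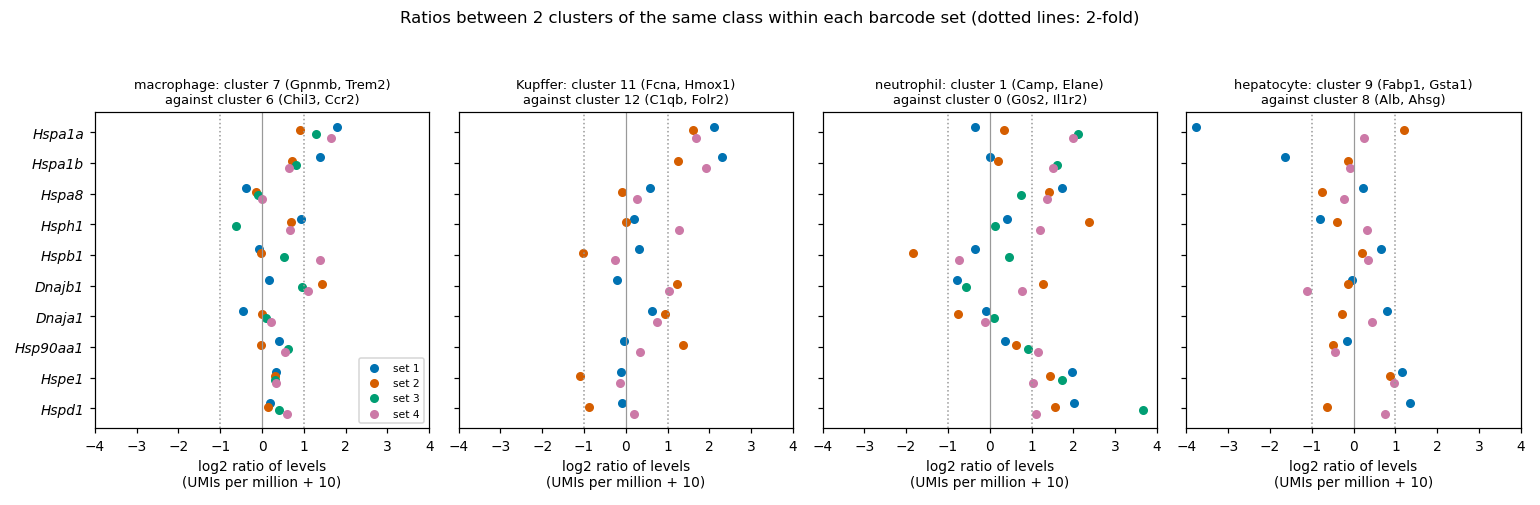
Log2 ratio of levels (CPM plus 10) of the 10 genes between 2 clusters of the same class, named by leading genes; points are barcode sets with at least 20 cells of both clusters and dotted lines mark 2-fold. Hspa1a lies right of 0 in every set for both macrophage pairs, and Hspe1 and Hspd1 in every set for neutrophils.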

How the data were processed

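Libraries were made with the 10x Genomics Single Cell 3′ v2 kit, per the labels' protocols, and CASAVA 1.8, Cell Ranger, Seurat and build mm10 are named in the submitters' processing notes. The deposited values hold ln(1 + x), a natural log in which x is a gene's UMIs scaled to 10000 per cell. Turned back, 100% of the nonzero x were whole multiples of the least x in that cell (tolerance 0.001), which gave back whole UMI counts. Each cell had at least 201 genes; no doublets were removed and no caller was run. Cells were clustered with scanpy 1.11.5 (2000 variable genes, 30 components, 15 neighbours, Leiden resolution 1.0) without 112 chaperone and immediate early genes, and clusters were named from 17 marker lists. Levels are mean UMI shares in CPM; ratios used a pseudocount of 10 CPM and a filter of 20 CPM. The genotype test planned with limma was not run, because no cell could be tied to a sample. The call was tried on simulated counts with known folds larger than 2-fold and a shared profile in all sets. Counting error was the only spread there, so the trial does not cover calls near 2-fold or differences between cells and sets.

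The 10 genes, the marker and gene lists and the class pairs were chosen with earlier results of these data known. All 10 genes are named in every comparison; of other lists, counts and up to 4 genes of the highest level; and the 10 genes most like Hspa1a and the 10 most like Hspd1 by Pearson correlation of log2 levels, among genes of at least 20 CPM. The clusters compared within a class and the plasma cell rich in Hspb1 were chosen after their values were seen. Promoters came from RefSeq (GRCm38.p6) and gene positions from GENCODE vM21 (GRCm38). Depth was 10718992, 11073621, 9093921 and 35033778 UMIs in sets 1 to 4. Alternatives were other pseudocounts, filters, summed UMIs, cells with at least 500 genes, other clusterings, thinning depths, centring on all genes, and leaving out single sets, shared barcodes or the 5% of cells with the most UMIs; leaving out shared barcodes was added after the data were seen, as were, for the levels, the other cell filters and leaving out single sets. Exact binomial intervals cover counting error only.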

Additional observations from a re-analysis of the deposited data

How the results depend on the processing

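Of the alternatives to the member medians of the 6 class pairs, 79 gave a value within the spread over sets (1 SD), 15 moved and 1 reversed. For levels and shares 77 stayed and 8 moved. Levels were judged by the spread over sets and shares by their exact interval. The tally for levels and shares includes the checks of how many genes kept their highest class. Of the counts of members called, 154 were equal to the count reported and 36 differed, 13 of them by more than 1.5 times or to or from 0. Leaving out the shared barcodes left every one of these medians and levels within that spread and every count within 1.5 times. The same was found without any single set, but for medians and levels this says nothing about stability. Dropping 1 set moves a median over sets by less than the SD over those sets, apart from the filter on level. These alternatives are among the 79 and 77 that stayed. Shares were not computed again without a set or without the shared barcodes. Leaving out a single set added calls of Dnajb1 (1.45 without set 2) and Hspa1b (1.67 without set 4) in Krt8/Sox9 cells, Hspb1 (1.45 without set 3) in endothelial cells, Hspa8 (-1.39 without set 3) in neutrophils and Hsph1 (-1.16 without set 1) in plasma cells. A call needs every set, so leaving out a set can add calls but, apart from the filter on level, cannot remove one. Calls said to hold in every alternative therefore rest on the other alternatives. In endothelial against hepatocyte cells the member median (0.72) was 0.50 at a pseudocount of 50 CPM, 0.37 at a filter of 100 CPM, 0.59 with summed UMIs, 0.61 with cells of at least 500 genes, 0.61 with clustering on all genes and, reversed, -0.11 after centring all genes at a median of 0. The count lower there (1) was 0 at a pseudocount of 50 CPM, at Leiden resolution 0.5 and with clustering on all genes, and 2 after centring, and it stayed at 1 with summed UMIs and with cells of at least 500 genes with Hspd1 in place of Hspe1; the count higher (2) was 1 at a filter of 100 CPM. For Krt8/Sox9 epithelial cells the count higher (4) was 2 with summed UMIs and 2 at resolution 0.5. The Kupffer median (0.16) was 0.40 with cells of at least 500 genes, and the T cell median (0.15) was 0.25 after centring. The neutrophil median (-1.24) was -0.77 at a pseudocount of 50 CPM, -0.36 with summed UMIs and -0.59 with cells of at least 500 genes, and its count lower (3) was 1 at that pseudocount, 1 at a filter of 100 CPM and 6 at both other resolutions. The plasma cell median (-1.16) was -1.43 and -0.81 at pseudocounts of 1 and 50 CPM, -1.53 at a filter of 100 CPM, -0.99 with summed UMIs and -0.42 after centring, and its count lower (4) was 1 at a pseudocount of 50 CPM and 0 after centring.

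Thinned to 500 UMIs or not thinned, the share of cells with a UMI was 28.8% or 50.9% for Hspa1a in Kupffer cells (46.0%) and 12% or 49.5% for Hspb1 in Krt8/Sox9 cells (22.3%); for Dnaja1 in basophil/mast cells (82.8%) it was 67.9% at 500 UMIs. Among cells with at least 500 genes 6 of the 10 members kept their highest class, since the basophil/mast class then reached the minimum of 20 cells in set 4 alone (41 cells). The genes that changed (Hspa8, Dnajb1, Dnaja1 and Hsp90aa1) were those highest in that class. The highest class was taken among classes with values in at least 3 sets, so Hspb1 was judged in Krt8/Sox9 and not in stellate/fibroblast cells. The cause of the shifts in member medians, levels and counts was not tested. No paired analysis was possible because the cells carry no sample label, so neither genotype nor replicate number can be assigned to them. Genotype, doublets and the Hspa1a to Hspa1b read split limit the levels given, and genes under about 20 CPM rest on few UMIs.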

Other observations

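Other chaperone groups, described by how many of their tested genes were at least 2-fold apart in every set and by their median log2 ratio, were compared in the same class pairs. In endothelial against hepatocyte-like cells, 0 of 13 TRiC and prefoldin genes, the cytosolic chaperonin and its feeder, were called in either direction (median -0.05, all genes 0.74). The same count was 0 of 13 for HSP90 and cochaperone genes (0.39) and 0 of 8 for HSP70 and exchange factor genes (0.14), while 2 of 11 J-domain genes were higher (0.62), where 24.1% of all genes were higher and 9.12% lower. In neutrophils against monocyte/macrophages the TRiC and prefoldin median was -0.95 and that of HSP90 and cochaperones -0.63, with 1 of 12 of the latter lower, against -0.27 for all genes, of which 5.62% were lower. In T against NK/ILC1-like cells no gene of these 4 groups was called, where 0.949% of all genes were higher and 1.65% lower, and their medians were -0.02, -0.02, -0.08 and -0.20.

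Single genes of these groups had their own classes. Hsp90ab1, the constitutive HSP90 gene, had 1783 CPM in Krt8/Sox9 epithelial cells and 1723 CPM in Kupffer cells. Cryab, a small heat shock protein, stood at 356 CPM in cholangiocyte-like cells. Ubb, a polyubiquitin gene, reached 6718 CPM in basophil/mast-like cells, and Dnajc7, which binds HSP70 and HSP90, 775 CPM in plasmacytoid dendritic cells. Hmox1, heme oxygenase, was at 4141 CPM in Kupffer cells and 572 CPM in monocyte/macrophages.

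The unnamed cluster 23 had 637, 587 and 790 CPM of Hspa1a in sets 2 to 4. Its mean log2 marker fold was 1.92 for the Kupffer list and 1.84 for the endothelial list, the classes described above as high in Hspa1a. Whether it holds doublets or a mix of these classes was not tested. The other unnamed cluster, 18, had 232 CPM in set 4. Within endothelial-like cells, cluster 19 exceeded cluster 20 for Hspb1 by a log2 ratio of 1.36 (0.54 to 2.27) in 3 sets.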
